A study of Rattus norvegicus with 9 samples.

Results

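A set of 8 mature miRNAs that are known from inflamed glia and from white blood cells is described here in the rat hippocampus: rno-miR-21-5p, rno-miR-21-3p, rno-miR-146a-5p, rno-miR-155-5p, rno-miR-150-5p, rno-miR-223-3p, rno-miR-142-5p and rno-miR-142-3p, written below without the species prefix. They were taken by name from a table of 633 mature miRNAs, all 8 were present, and all 8 were among the 469 miRNAs with enough counts to be tested. The libraries come from Sprague-Dawley rats and fall into 3 groups of 3. The vehicle group (VEH) received saline for 14 days and again for 7 days. In the MK-801 group, 14 daily intraperitoneal doses of 0.2 mg/kg MK-801 came before 7 days of saline. MK-801, or dizocilpine, blocks NMDA receptors and is used to model schizophrenia. In the MK-801+CLO group, the identical MK-801 course preceded 7 days of the antipsychotic clozapine (CLO) at 10 mg/kg, so that MK-801 is common to both drug groups and no group had clozapine alone. The labels give the age as postnatal day 21 and the protocol gives 5 weeks at the start of dosing. The protocol speaks of 10 rats a group, and the number of rats behind each library is not stated.

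A miRNA is cut from a hairpin with a 5p and a 3p arm, 1 of which is usually kept, and it lowers the output of messenger RNAs that pair with its seed, bases 2 to 8 from the 5′ end. NF-kappaB, the transcription factor downstream of Toll-like and cytokine receptors, induces miR-146a and miR-155 in microglia, astrocytes and macrophages. MiR-146a damps that pathway through Traf6 and Irak1, while miR-155 sharpens it, in part through Socs1. MiR-21 is raised in reactive astrocytes and injured tissue and is known for repressing Pdcd4. MiR-142 is made by nearly all cells of the blood-forming lineage, microglia included. MiR-223 is made by neutrophils and other myeloid cells, and miR-150 by mature lymphocytes, where it restrains Myb.

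The mature sequences show which members could act on the same targets and which could be confused in counting. Of the 8 members, 7 were matched by name in the RefSeq table of rat miRNAs (build GRCr8), and all 7 had the same sequence as in the deposited table. They are written 5′ to 3′ with the seed in capitals, and miR-146b-5p is added because it shares a seed with a member.
miR-21-5p: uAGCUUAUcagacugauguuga
miR-21-3p: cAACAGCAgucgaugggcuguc
miR-146a-5p: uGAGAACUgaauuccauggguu
miR-146b-5p: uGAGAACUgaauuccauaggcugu
miR-155-5p: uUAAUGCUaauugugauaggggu
miR-223-3p: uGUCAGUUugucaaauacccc
miR-142-5p: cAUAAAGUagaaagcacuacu
miR-142-3p: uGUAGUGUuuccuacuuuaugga
The 7 members carried 7 different seeds, so none of them shares a seed with another. In the RefSeq table, miR-146b-5p was the single other rat miRNA with the seed of one of these members. Counted from the 5′ end, miR-146a-5p and miR-146b-5p differ by G18A and U21C, and miR-146b-5p is 24 bases long against 22. In the GRCr8 gene annotation the miR-155 hairpin lies within Mir155hg and the miR-142 hairpin within Tspoap1, while Vmp1 is the nearest protein-coding gene on one side of the miR-21 hairpin.

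Library totals ran from 10665718 to 18284905 counts, and levels are given as CPM, the counts scaled to a common library total. All 3 oligodendrocyte miRNAs, all 4 vessel miRNAs and all 5 neuron miRNAs checked were present in every library, and miR-9a-5p averaged 84597 CPM. The liver miRNA miR-122-5p averaged 0.358 CPM. VEH replicate 3 stood apart in the summed level of the choroid plexus and cilia miRNAs, which was 12394 CPM there and 2562 to 5800 CPM in the other 8 libraries. Most of that sum was miR-204-5p (8583 CPM), while miR-211-5p, at 10.4 CPM, was lower there than in the other VEH libraries. By group the sum was 3984 to 12394 CPM in VEH, 3647 to 4495 CPM in MK-801 and 2562 to 3855 CPM in MK-801+CLO, the last of which lay wholly below VEH. All 7 of these miRNAs lay below VEH in MK-801 (3 at an unadjusted p under 0.05, and 6 of 7 below without VEH replicate 3), and 6 of 7 lay below VEH in MK-801+CLO (5 lower at an unadjusted p under 0.05, median log2 fold change -1.16). None passed the adjusted threshold in edgeR, and none was at 0 in any library. DESeq2 called miR-34b-5p lower (adjusted p = 0.00471) and miR-211-5p higher (adjusted p = 0.0490) in MK-801+CLO against VEH. It also called miR-211-5p higher in MK-801+CLO against MK-801 (adjusted p = 0.0366). The part of these 7 miRNAs in the members' values was not tested. The labels do not say that the libraries of a group came from separate animals, so p-values measure the spread between these libraries only. In whole tissue, fewer cells of a type and less of a miRNA per cell cannot be told apart.

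The 8 members spanned a wide range of abundance, and 2 of them carried nearly all of their counts. As mature miRNAs of 21 to 23 bases are read whole, their CPM can be set beside each other without a length term, although library making captures miRNAs unequally. MiR-21-5p averaged 1269 CPM over the 9 libraries and ranked at 64 of 633, and miR-150-5p averaged 790 CPM and ranked at 80. These made up 58.3% and 36.3% of the members' summed CPM. MiR-146a-5p (48.7 CPM), miR-142-5p (42.2 CPM), miR-21-3p (13.4 CPM) and miR-142-3p (7.76 CPM) followed. The inflammation miRNA miR-155-5p (3.00 CPM) and the myeloid miR-223-3p (1.79 CPM) ranked at 396 and 423. The opposite arms were close to absent: over all 9 libraries together miR-146a-3p had 7 counts, miR-150-3p 8, miR-223-5p 5 and miR-155-3p 1.

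**Figure D1:**
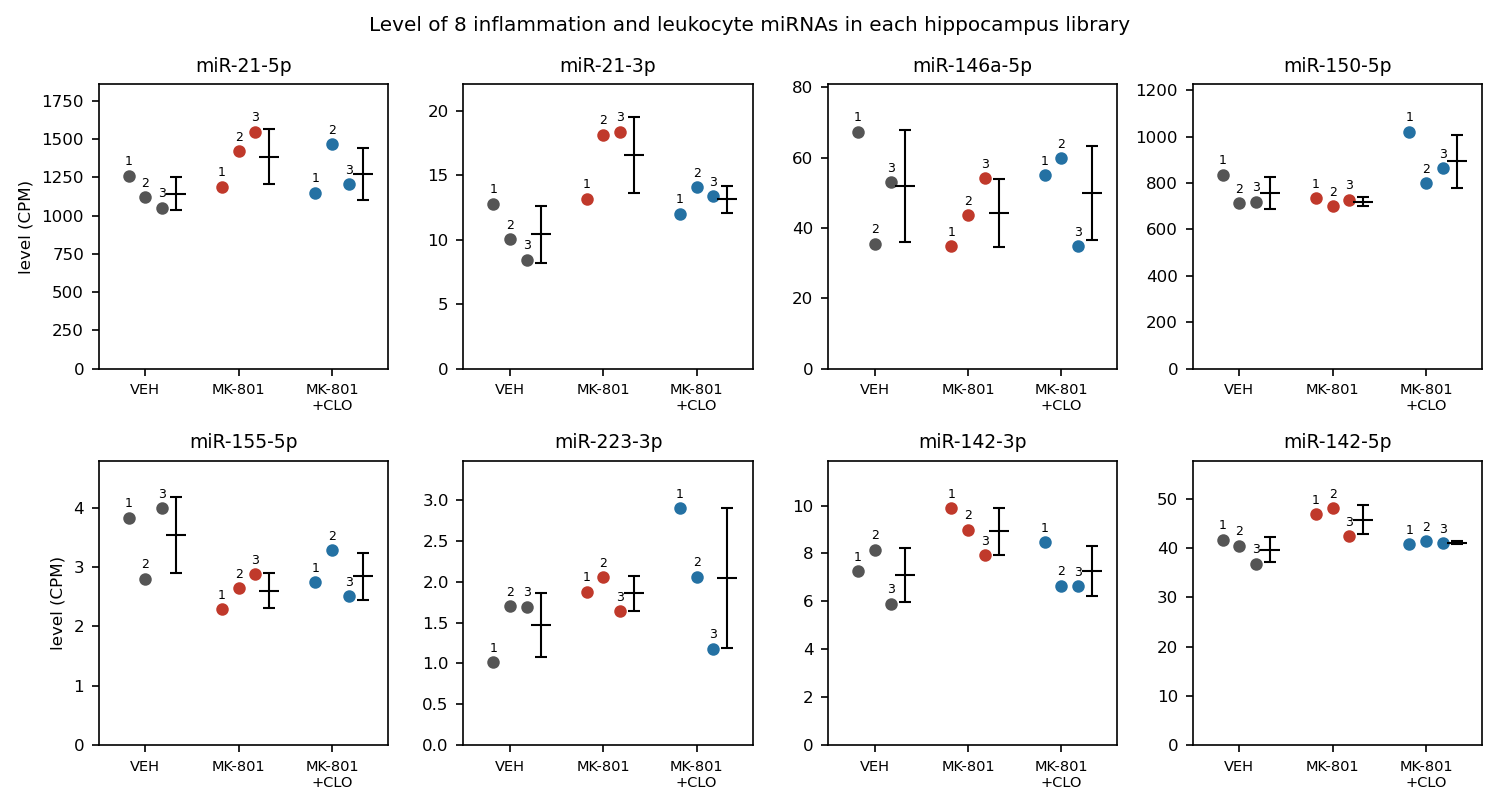
Level of each of the 8 miRNAs in CPM (linear axes from 0) in the VEH, MK-801 and MK-801+CLO libraries, with points marked by replicate number and black bars for the mean ± SD (n = 3). The MK-801 points lie above the VEH points for miR-21-3p and miR-142-5p, and the MK-801+CLO points lie above the MK-801 points for miR-150-5p.

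After the MK-801 course, miR-21-3p and miR-142-5p were the members that stood above VEH in every library, by 1.61 times and 1.17 times in the fitted means. No member passed the test. edgeR's quasi-likelihood test called 0 of 469 miRNAs at an adjusted p of 0.05 (0% of those tested), DESeq2 called 1 and limma voom 0, none of them a member. At an unadjusted p under 0.05 there were 2 of 8 members, both higher, where 24 of 469 miRNAs (5.12%) reached it in either direction. The groups did not overlap in CPM for these 2 of 8 members, against 13.9% of all tested miRNAs. Of the 8 members 5 lay above VEH and 3 below, with a median log2 fold change of 0.26 beside -0.018 for all 469. Those above were miR-223-3p and both arms of miR-21 and of miR-142. Arms of the same hairpin are not independent of each other, so these counts and medians weigh miR-21 and miR-142 more than the rest.

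After clozapine, miR-150-5p was above the MK-801 level in every library and miR-142-5p below it in every library. MK-801+CLO against MK-801 again gave 0 of 469 calls in edgeR (0%), 2 in DESeq2 and 0 in limma voom, none of them a member. At an unadjusted p under 0.05 there was 1 of 8 members, miR-150-5p, against 39 of 469 miRNAs (8.32%). Groups did not overlap for 2 of 8 members, 1 in each direction, against 11.5% of all miRNAs. The members split into 4 above and 4 below, the latter being both arms of miR-21 and of miR-142. Their median log2 fold change over all 8 members was 0.039, beside -0.0044 for all miRNAs. Upper-quartile scaling moved these medians to -0.067 and -0.12.

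Set against saline, the full course left miR-150-5p as the 1 of 8 members at an unadjusted p under 0.05, a share near that of all miRNAs (70 of 469, 14.9%). No member of MK-801+CLO stood wholly outside the VEH range, while 17.5% of all miRNAs did. edgeR called 0 of 469 (0%), DESeq2 11 and limma voom 0, with no member among them. The members lay above VEH in 6 of 8 cases, with a median log2 fold change of 0.16 beside 0.0034 for all miRNAs. Both arms of miR-21 and of miR-142 were again among those above. MK-801 against VEH and MK-801+CLO against MK-801 share the MK-801 libraries, and each of them shares a group with MK-801+CLO against VEH, so the values of a member in the 3 comparisons are not independent of each other.

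**Figure D2:**
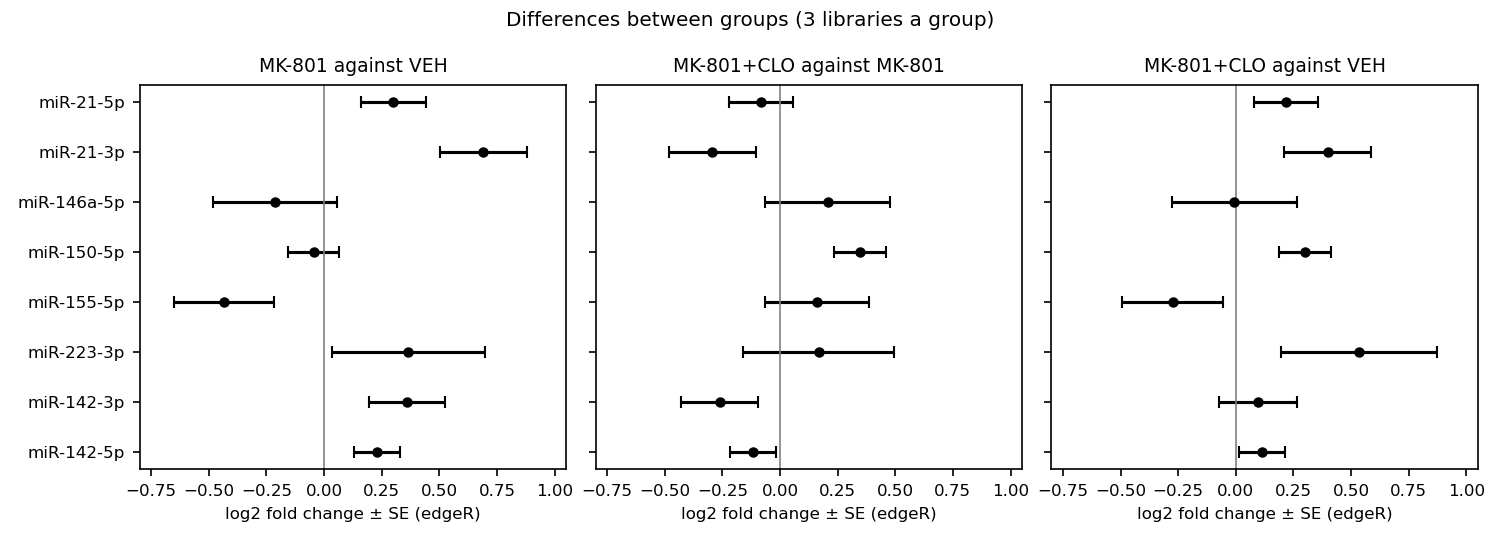
Log2 fold change ± SE (edgeR, 3 libraries a group) of each miRNA in the 3 comparisons, with the grey line at no difference. MiR-21-3p at 0.69 in MK-801 against VEH lies farthest from 0, and miR-146a-5p lies at -0.01 in MK-801+CLO against VEH.

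Of the miR-21 hairpin, known from reactive glia, the abundant 5p arm overlapped between all groups, and the rare 3p arm was higher in every MK-801 library than in any VEH library. MiR-21-5p stood at 1263, 1121 and 1052 CPM in VEH replicates 1 to 3, at 1189, 1423 and 1549 CPM in the MK-801 replicates, and at 1149, 1469 and 1206 CPM in the MK-801+CLO replicates. MK-801 replicates 2 and 3 and MK-801+CLO replicate 2 were the highest, MK-801 replicate 1 lay inside the VEH range, and all groups overlapped. Against VEH the log2 fold change was 0.30 ± 0.14 in MK-801 (adjusted p = 0.814 by edgeR) and 0.22 ± 0.14 in MK-801+CLO (adjusted p = 0.501 by edgeR). Without MK-801 replicate 3, its highest library, the first was 0.19, and without MK-801+CLO replicate 2 the second was 0.074.

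MiR-21-3p stood at 12.8, 10.0 and 8.42 CPM in the VEH replicates, which rest on 118 to 213 counts. It stood at 13.2, 18.1 and 18.3 CPM in the MK-801 replicates and at 12.0, 14.1 and 13.4 CPM in the MK-801+CLO replicates. All MK-801 libraries were above all VEH libraries, but the nearest pair, MK-801 replicate 1 at 13.2 CPM (95% Wilson interval 11.5 to 15.2) and VEH replicate 1 at 12.8 CPM (11.2 to 14.6), overlapped in counting error. The log2 fold change in MK-801 was 0.69 ± 0.19, the second smallest p of 469 miRNAs (unadjusted p = 0.00423, adjusted p = 0.588 by edgeR). It ran from 0.56 without VEH replicate 3 to 0.86 without VEH replicate 1, which are the lowest and the highest VEH library. With clozapine it was -0.29 ± 0.19 against MK-801 (adjusted p = 0.680 by edgeR) and 0.40 ± 0.19 against VEH (adjusted p = 0.344 by edgeR), and those groups overlapped. The order of the means was MK-801, MK-801+CLO, VEH.

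The ratio of the 2 arms does not depend on how libraries are scaled. The 5p arm outnumbered the 3p arm 99.0, 112 and 125 times in the VEH replicates, 90.3, 78.5 and 84.4 times in the MK-801 replicates, and 95.8, 104 and 90.3 times in the MK-801+CLO replicates. All MK-801 libraries lay below all VEH libraries and, by a small margin in 1 case (90.26 against 90.34), below all MK-801+CLO libraries. The mean log2 ratio was 6.40 ± 0.10 (SD, n = 3) in MK-801 and 6.80 ± 0.17 in VEH. The difference of -0.40 had a two-sided exact permutation p = 0.1, the smallest that 3 against 3 libraries can give, and an adjusted p of 0.3 over 6 ratios compared. MK-801+CLO, at 6.60 ± 0.11, differed from MK-801 by 0.20 (exact permutation p = 0.1, adjusted p = 0.3) and from VEH by -0.20 (exact permutation p = 0.2, adjusted p = 0.4).

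**Figure D3:**
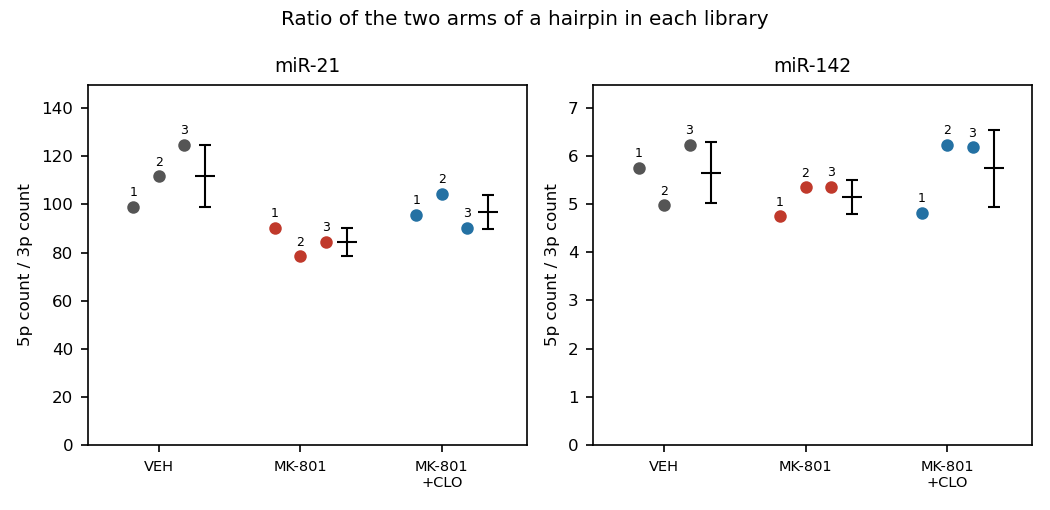
Count of the 5p arm divided by that of the 3p arm (linear axes from 0) for the miR-21 and miR-142 hairpins in each library, with replicate numbers and mean ± SD (n = 3). The miR-21 ratio is 78.5 to 90.3 in MK-801 and 99.0 to 125 in VEH, and the miR-142 ratios of the 3 groups overlap.

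The miRNA most like miR-21-3p over the 9 libraries, which share their scaling, was one of oligodendrocytes. By the root mean square difference of log2 levels centred over the 9 libraries, miR-338-3p, a miRNA of maturing oligodendrocytes, was nearest to miR-21-3p (0.16, with 0.39 as the median over 332 miRNAs), followed by miR-21-5p (0.19). MiR-338-3p stood at 3467, 2798 and 2515 CPM in VEH, at 2846, 4450 and 4383 CPM in MK-801 and at 2592, 4094 and 3242 CPM in MK-801+CLO. As for miR-21-5p, MK-801 replicates 2 and 3 and MK-801+CLO replicate 2 were its 3 highest libraries. In MK-801 replicate 1, miR-21-3p was slightly above its mean (0.034 on the centred log2 scale) while all 3 oligodendrocyte miRNAs were below theirs (-0.20 to -0.46). The 3 oligodendrocyte miRNAs all lay above VEH in MK-801, at log2 fold changes of 0.26 to 0.43 (none past the test), and none of them was at 0 in any library. Their summed level was 3686 to 4910 CPM in VEH, 3811 to 6184 CPM in MK-801 and 3738 to 5925 CPM in MK-801+CLO. Their part in the miR-21 values was not tested. For miR-21-5p the nearest miRNAs were miR-340-3p (0.098) and miR-181b-5p (0.10).

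**Figure D4:**
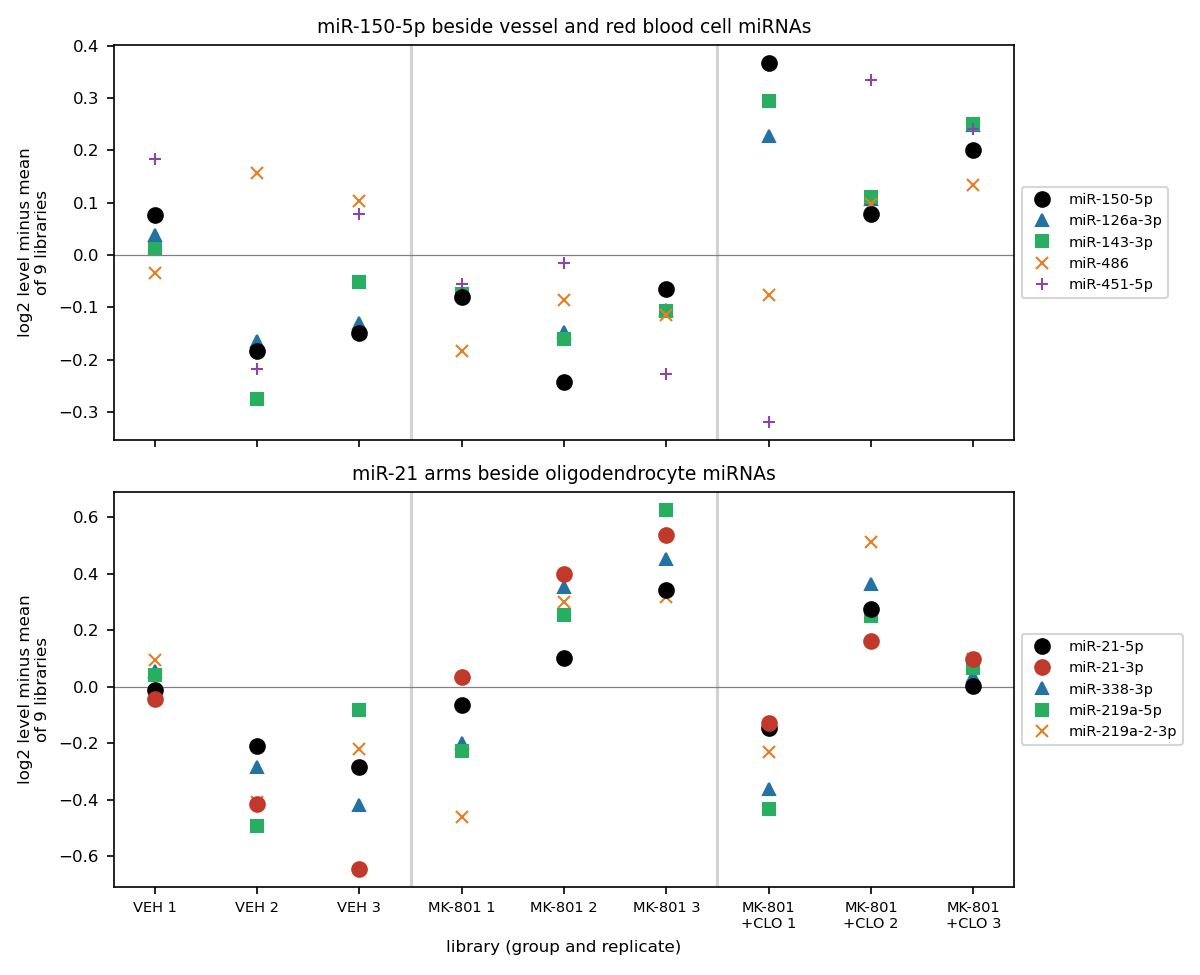
Log2 level minus the mean of the 9 libraries, by library, for miR-150-5p beside vessel miRNAs (miR-126a-3p, miR-143-3p) and red blood cell miRNAs (miR-486, miR-451-5p) above, and for both arms of miR-21 beside oligodendrocyte miRNAs below. MiR-150-5p, miR-126a-3p and miR-143-3p are all above their means in the 3 MK-801+CLO libraries, and in replicates 2 and 3 of that group miR-486 and miR-451-5p are above theirs too. Of the vessel miRNAs not drawn, miR-126a-5p was above its mean in all 3 MK-801+CLO libraries. The other, miR-145-5p, was below its mean in replicates 2 and 3 of that group (-0.50 and -0.31).

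The NF-kappaB-induced miRNAs had lower means than VEH in both drug groups, within the spread of the libraries. MiR-146a-5p stood at 67.3, 35.5 and 53.0 CPM in VEH, at 34.8, 43.7 and 54.2 CPM in MK-801 and at 55.1, 59.8 and 34.8 CPM in MK-801+CLO. Each group held a library near 35 CPM and the groups overlapped throughout. The log2 fold change was -0.21 ± 0.27 in MK-801 against VEH (adjusted p = 0.874 by edgeR) and -0.01 ± 0.27 in MK-801+CLO against VEH (adjusted p = 0.986 by edgeR), and the sign of the latter turned with RLE scaling (0.010). The spread within a group, at 22.0% to 30.7% of the mean, was above the 3.79% to 4.13% that counting error alone would give.

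MiR-155-5p stood at 3.83, 2.80 and 3.99 CPM in VEH, at 2.29, 2.64 and 2.88 CPM in MK-801 and at 2.75, 3.28 and 2.51 CPM in MK-801+CLO. VEH replicates 1 and 3 were the highest of the 9 libraries, and VEH replicate 2 lay among the treated ones. With 33 to 73 counts a library, counting error alone gives a spread of 14.1% to 17.0%, and the measured spread was 11.5% to 18.2%. The log2 fold change was -0.43 ± 0.22 in MK-801 (unadjusted p = 0.0729, adjusted p = 0.814 by edgeR) and -0.27 ± 0.22 in MK-801+CLO (adjusted p = 0.578 by edgeR), both against VEH. The first was -0.57 without VEH replicate 2 (unadjusted p = 0.0355 by edgeR) and had an unadjusted p over 0.05 in the other 8 fits that left out 1 library. MK-801+CLO differed from MK-801 by 0.16 ± 0.22, and by 0.039 without MK-801+CLO replicate 2.

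MiR-146b-5p, with the seed of miR-146a-5p, was the abundant one of the pair. It stood at 3881, 1996 and 2506 CPM in VEH, at 3818, 2801 and 3905 CPM in MK-801 and at 2955, 3532 and 1922 CPM in MK-801+CLO, so that miR-146b-5p outnumbered miR-146a-5p 47.2 to 110 times. Its log2 fold change in MK-801 against VEH was 0.36 ± 0.28 (adjusted p = 0.824 by edgeR), and that of miR-146a-5p pointed the other way. As a share of the counts of both, miR-146a-5p made up 1.71%, 1.75% and 2.07% in VEH, 0.902%, 1.54% and 1.37% in MK-801 and 1.83%, 1.67% and 1.78% in MK-801+CLO. The 3 MK-801 libraries had the lowest shares of the 9. The highest of them, at 1.54% (95% Wilson interval 1.43% to 1.65%), overlapped in counting error with MK-801+CLO replicate 2 at 1.67% (1.54% to 1.80%). This share was chosen after its values were seen and was not tested, and the sources used here do not state how a read matching both was assigned.

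**Figure D5:**
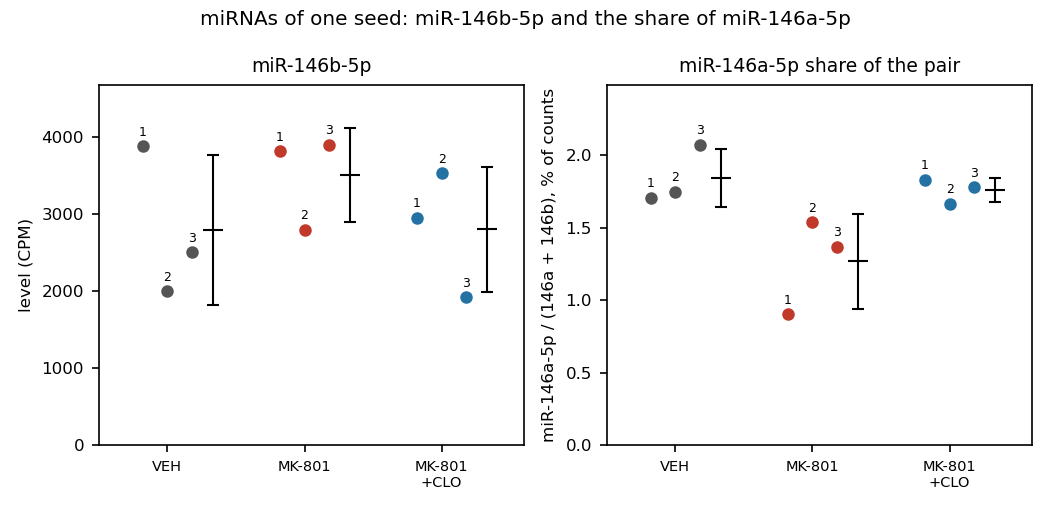
Level of miR-146b-5p in CPM and the counts of miR-146a-5p as a percent of those of both miRNAs (linear axes from 0), by library, with replicate numbers and mean ± SD (n = 3). The share is 0.902% to 1.54% in MK-801 and 1.67% to 2.07% in the other 6 libraries.

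Among the leukocyte miRNAs, miR-150-5p of lymphocytes had its highest mean with clozapine. It stood at 835, 712 and 719 CPM in VEH, at 734, 699 and 728 CPM in MK-801 and at 1021, 799 and 864 CPM in MK-801+CLO. Every MK-801+CLO library was above every MK-801 library, while VEH replicate 1 lay inside the MK-801+CLO range. Against MK-801 the log2 fold change was 0.35 ± 0.11 (unadjusted p = 0.0112, adjusted p = 0.526 by edgeR), and against VEH it was 0.30 ± 0.11 (unadjusted p = 0.0226, adjusted p = 0.254 by edgeR). In MK-801 against VEH it was -0.05 ± 0.11 (adjusted p = 0.940 by edgeR), with the sign turning under upper-quartile scaling (0.045). Upper-quartile scaling, which lowers all miRNAs of MK-801+CLO against MK-801, brought the first value to 0.23 (unadjusted p = 0.0900). Without MK-801+CLO replicate 1, the highest library, it was 0.27. The unadjusted p stayed under 0.05 in all 9 fits that left out 1 library for the comparison with MK-801, and in 6 of 9 for the comparison with VEH, where it was 0.0849 without MK-801+CLO replicate 1.

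The miRNAs nearest to miR-150-5p over the 9 libraries were miR-126a-3p of endothelium (0.063) and miR-143-3p of smooth muscle (0.066), beside a median of 0.24 over 332 miRNAs. MiR-126a-3p stood at 931, 825 and 834 CPM in the VEH replicates, at 843, 854 and 809 CPM in the MK-801 replicates and at 1060, 932 and 1021 CPM with clozapine. All 4 vessel miRNAs lay above MK-801 in MK-801+CLO, 2 of them at an unadjusted p under 0.05 by edgeR. However, 1 of the other 2 turned sign with upper-quartile scaling (-0.015), and miR-145-5p turned sign without MK-801+CLO replicate 1 (-0.29). Against VEH, 3 of 4 lay above at an unadjusted p under 0.05 by edgeR, with no overlap, and miR-145-5p lay below (-0.21). None passed the adjusted threshold in edgeR, while DESeq2 called miR-126a-3p and miR-143-3p against VEH (adjusted p = 0.0490 each). None of the 4 vessel miRNAs was at 0, and their summed level was 21837 to 25137 CPM in VEH, 22712 to 24162 CPM in MK-801 and 25681 to 30246 CPM in MK-801+CLO. The 4 red blood cell miRNAs also lay above MK-801 and none was at 0. Their summed level was 3071 to 3563 CPM in VEH, 2710 to 3091 CPM in MK-801 and 2973 to 3268 CPM in MK-801+CLO, so that VEH reached the highest value. Nearly all of that sum was miR-486, at a mean of 3076 CPM over the 9 libraries. While miR-486 had its highest mean in VEH, miR-451-5p, miR-144-5p and miR-144-3p had theirs in MK-801+CLO and their lowest in MK-801. The groups overlapped for each of these miRNAs. In MK-801+CLO replicate 1, where miR-150-5p was highest, all 4 were below their means over the 9 libraries, from -0.32 for miR-451-5p to -0.011 for miR-144-5p on the centred log2 scale, and in replicates 2 and 3 all 4 were above, as miR-150-5p was. The part of vessels and blood in the miR-150-5p values was not tested.

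The 2 arms of miR-142, of microglia and other cells of the blood-forming lineage, had their highest means after MK-801 without clozapine. MiR-142-5p stood at 41.7, 40.5 and 36.8 CPM in VEH, at 46.9, 48.1 and 42.5 CPM in MK-801 and at 40.8, 41.4 and 41.0 CPM in MK-801+CLO. All MK-801 libraries were above all other libraries. The gap was small, as MK-801 replicate 3 at 42.5 CPM (95% Wilson interval 39.3 to 45.9) overlapped in counting error with VEH replicate 1 (38.7 to 44.9). The log2 fold change was 0.23 ± 0.10 in MK-801 against VEH (unadjusted p = 0.0449, adjusted p = 0.814 by edgeR), -0.12 ± 0.10 in MK-801+CLO against MK-801 (adjusted p = 0.726 by edgeR) and 0.11 ± 0.10 in MK-801+CLO against VEH (adjusted p = 0.615 by edgeR). The unadjusted p of the first was over 0.05 in 8 of 9 fits that left out 1 library, up to 0.156 without VEH replicate 3, and was 0.0727 with library totals as the only scaling.

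MiR-142-3p stood at 7.25, 8.16 and 5.91 CPM in VEH, at 9.88, 8.98 and 7.93 CPM in MK-801 and at 8.47, 6.66 and 6.64 CPM in MK-801+CLO. MK-801 replicates 1 and 2 were the highest of all libraries, but replicate 3 lay inside both other ranges. The log2 fold changes had the signs of the 5p arm in all 3 comparisons, at 0.36 ± 0.17, -0.26 ± 0.17 and 0.10 ± 0.17, none of which passed (adjusted p = 0.814, 0.680 and 0.826 by edgeR). The last turned sign without VEH replicate 3 (-0.024) and without MK-801+CLO replicate 1 (-0.0016). The 5p arm was 4.74 to 6.23 times the 3p arm, and the largest difference in mean log2 ratio between groups was 0.15, for MK-801+CLO against MK-801 (exact permutation p = 0.3, adjusted p = 0.45). Both arms had the same nearest miRNAs with a mean of at least 10 CPM, miR-384-5p (0.061 for the 5p arm, 0.13 for the 3p arm) and miR-30e-5p (0.083 and 0.14). The 4 red blood cell miRNAs lay below VEH in MK-801, at log2 fold changes of -0.20 to -0.12. Of these, miR-486 had an unadjusted p = 0.0460 (adjusted p = 0.814, both by edgeR), with overlapping groups. However, 1 of the others lay above without VEH replicate 3 (0.096). The part of blood in the miR-142 values was not tested.

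MiR-223-3p of neutrophils and other myeloid cells was at the lower end of what could be measured, with 16 to 37 counts a library. It stood at 1.02, 1.70 and 1.70 CPM in VEH, at 1.88, 2.05 and 1.64 CPM in MK-801 and at 2.90, 2.06 and 1.18 CPM in MK-801+CLO. The MK-801+CLO libraries spanned nearly the whole range of the 9, and MK-801+CLO replicate 1 was the highest, as it was for miR-150-5p. Counting error alone gives a spread of 18.6% to 21.7%, and the measured spread was 26.6% in VEH, 11.3% in MK-801 and 42.0% in MK-801+CLO. The log2 fold changes were 0.37 ± 0.33, 0.17 ± 0.33 and 0.53 ± 0.34 in the 3 comparisons, none of which passed (adjusted p = 0.841, 0.881 and 0.489 by edgeR). They depended on single libraries, as the first was 0.14 without VEH replicate 1. The second was -0.15 and the third 0.22 without MK-801+CLO replicate 1, and without MK-801+CLO replicate 3 the third was 0.78 (unadjusted p = 0.0315 by edgeR).

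Of 14 further miRNAs linked to inflammation, 7 had enough counts to be tested, and none passed in any comparison (0 called by edgeR, and 0, 1 and 2 at an unadjusted p under 0.05). They lay above VEH for 3 of 7 in MK-801, above MK-801 for 2 of 7 in MK-801+CLO, and above VEH for 3 of 7 in MK-801+CLO, with medians of -0.065, -0.14 and -0.080. MiR-221-3p, which acts on the cell cycle inhibitor p27, was at 3716 ± 255 CPM in VEH, 3493 ± 357 CPM in MK-801 and 2806 ± 347 CPM in MK-801+CLO (SD, n = 3). Its MK-801+CLO libraries lay below all others, at log2 fold changes of -0.28 ± 0.11 against MK-801 and -0.35 ± 0.12 against VEH. MiR-34a-5p, a target of p53, was at 0.67 ± 0.29 in MK-801+CLO against VEH, with overlapping groups. The macrophage miRNA miR-511-3p, whose gene lies in that of the mannose receptor, had 20 counts over all 9 libraries.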

How the data were processed

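Small RNA of frozen rat hippocampus was sequenced, and libraries were put in 3 groups of 3 by their titles. The authors deposited whole-number counts per miRNA and library, and values headed TPM that equal counts scaled to CPM (largest relative difference 0.000473%). Bowtie, the build Rnor_6.0, DESeq and cutadapt 1.14 appear, without roles, per the submitters' processing notes. In the table, 21 blank lines were dropped and 1 split name was rejoined.

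With R 4.3.3, edgeR 4.0.16 (filterByExpr, TMM, glmQLFit, 1 mean per group over all 9 libraries) tested 469 miRNAs, with Benjamini-Hochberg adjustment over all of them. SE is the absolute log2 fold change over the square root of F. The code was tested on simulated counts. DESeq2 1.42.0 and limma 3.58.1 were alternatives, beside other scalings, filters, models and each library left out. Arm ratios used exact permutation tests and SciPy 1.17.1 gave the Wilson intervals (95%). Intervals cover counting error only. No 2 libraries agreed within sampling noise. The members and lists were chosen with earlier results of these data known. Named were all members, red blood cell miRNAs, the 2 nearest miRNAs per member, and some of the list members at an unadjusted p under 0.05 with a mean of at least 10 CPM. Also within that limit in at least 1 comparison, and not described above, were miR-138-5p, miR-128-3p and miR-132-3p of neurons. The same holds for miR-1298, miR-448-3p and miR-34c-5p of choroid plexus and cilia and miR-133a-3p of other tissue. MiR-146b-5p, miR-145-5p, miR-511-3p, miR-9a-5p, miR-122-5p and the rare arms are named besides, after their values were seen.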

Additional observations from a re-analysis of the deposited data

How the results depend on the processing

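No member passed an adjusted p of 0.05 under any of 18 alternatives in any comparison. Of 423 recomputed member fold changes, 408 kept their direction and 15 changed sign, in 6 of 24 results. The miR-146a-5p value of MK-801+CLO against VEH (-0.00690) became 0.0103 with RLE factors, 0.0120 in DESeq2 and 0.0152 with the replicate block, and the miR-150-5p value of MK-801 against VEH became 0.0453 with upper-quartile factors. The cause was not tested. The number of members at an unadjusted p under 0.05 in MK-801 against VEH went from 2 to 4 with upper-quartile factors and to 1 with library totals or no filter. In MK-801+CLO against VEH it went from 1 to 0 with library totals. DESeq2 called 1, 2 and 11 miRNAs in the 3 comparisons, against 0 each in edgeR.

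Leaving out 1 library at a time gave 0 to 1 calls over all miRNAs in MK-801 against VEH, 0 to 2 in MK-801+CLO against MK-801 and 0 to 7 in MK-801+CLO against VEH. The highest of these came without MK-801 replicate 2 in the first and without MK-801+CLO replicate 2 in the others. Members at an unadjusted p under 0.05 ran from 1 to 3 in the first and from 0 to 2 in the last. Log2 fold changes that changed sign ran from -0.424 to 0.00588 (miR-146a-5p) and -0.0903 to 0.0182 (miR-150-5p) in MK-801 against VEH. They ran from -0.205 to 0.0376 (miR-21-5p) and -0.152 to 0.437 (miR-223-3p) in MK-801+CLO against MK-801, and from -0.216 to 0.228 (miR-146a-5p) and -0.0237 to 0.200 (miR-142-3p) in MK-801+CLO against VEH. The miR-142 arm ratio of MK-801+CLO against VEH ran from -0.0709 to 0.140. With 1 library left out, the group of 2 is assumed to vary like the others.

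The labels do not say whether equal replicate numbers pair the libraries. Of 9 such pairs, 2 correlated above 0.1 (range -0.345 to 0.129), and pairs of unequal number ran from -0.235 to 0.275. Groups of 3 are too small for these correlations to decide the question. The replicate block left 0 calls in each comparison. Counting error was largest for miR-155-5p and miR-223-3p, at 14.1% to 21.7% of the mean, against a measured spread of 11.3% to 42.0%.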

Other observations

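Likeness among the members over the 9 libraries was measured by the root mean square difference of centred log2 levels. The closest pairs were miR-142-3p with miR-142-5p (0.15), miR-21-5p with miR-142-5p (0.16) and miR-21-5p with miR-21-3p (0.19). Next came miR-150-5p with miR-142-5p (0.222), and then miR-146a-5p with miR-155-5p (0.224), both induced by NF-kappaB. The farthest pair was miR-155-5p with miR-223-3p (0.52). Nearest to miR-146a-5p were miR-484 (0.20) and miR-494-3p (0.25), nearest to miR-155-5p were miR-320-3p (0.14) and miR-93-3p (0.15), and nearest to miR-223-3p were miR-6329 (0.29) and miR-125a-3p (0.32). These are descriptions of 9 libraries that share their scaling, and a member with a larger spread has larger differences from every other miRNA.

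The summed level of the 8 members was 1881 to 2232 CPM in VEH, 2033 to 2404 CPM in MK-801 and 2169 to 2395 CPM in MK-801+CLO, and it follows miR-21-5p and miR-150-5p, which hold most of it.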
